A study of Mus musculus with 20 samples.

Results

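The 35 apoptosis genes described here are Bcl2 family members, caspases, inhibitors of apoptosis proteins (IAPs) and the proteins around them. They were chosen by name, as probes whose transcript accession belongs to the gene, and all 35 have a probe among the 20972 genes named on the array. Of these, 26 are taken as pro-apoptotic and 9 as anti-apoptotic. Where several probes read a member, the one with the highest mean signal on the 20 arrays was used. A total of 30 members (22 pro-apoptotic, 8 anti-apoptotic) were tested among 15102 genes, because at least 1 group mean reached a log2 signal of 6, and every one of the 30 was well above background on all 20 arrays.

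The series asks how brain expression of HIV-1 Tat, a regulatory protein of the virus, interacts with repeated methamphetamine (Meth). RNA from 20 male C57BL/6J mice was hybridised to 1-colour arrays, 5 mice in each of 4 groups. Tat+ mice carry a Tet-binding protein under the GFAP promoter, which is active in astrocytes, together with a TRE-driven Tat transgene. Tat- mice carry the GFAP-driven Tet-binding protein and lack the Tat transgene. All 20 mice received doxycycline at 100 mg/kg daily for 7 days, so the controls had the inducer too. Meth groups were injected with 2 mg/kg for 7 days and saline groups with 0.9% saline, which gives the saline groups Tat-/Sal and Tat+/Sal and the Meth groups Tat-/Meth and Tat+/Meth. The labels give mice of 6 to 7 weeks, the left hemisphere of a perfused brain and tissue taken 24 h after the last injection, whereas the methods give older mice, the caudate putamen and a later Meth challenge for all mice. All 9 striatal neuron markers looked up, Drd1 among them, were well above background on 20 arrays, while the cortical markers Tbr1, Slc17a7 and Neurod6 were so on 20, 18 and 12 arrays.

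Apoptosis through mitochondria is set by the balance within the Bcl2 family. Anti-apoptotic members hold the effectors Bax and Bak1 in check, BH3-only proteins release them, and the opened outer membrane lets out proteins that start the caspases or block the IAPs. In neurons and glia most of these genes are expressed at all times and the pathway is largely switched at the protein level, so RNA levels are only 1 layer of it.

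The design limits what the arrays can separate. Slide 1 was filled by the 5 mice of Tat-/Meth alone. The 5 Tat-/Sal arrays share slide 2 with 3 of Tat+/Meth, and the 5 Tat+/Sal arrays share slide 3 with the remaining 2 of Tat+/Meth. The bright corner control spots had a log2 signal of 14.66 to 15.06 on slide 1 and of 16.80 to 17.42 on the other slides, and the 75th percentile before scaling in Tat-/Meth lay below that in Tat-/Sal by a difference of -0.42 log2 units. Tat-/Meth and slide 1 cannot be told apart, which holds for the interaction as well. Array 5 of Tat-/Meth also stood apart at the dim end, with 70.9% of probes well above background against 56.4 to 60.2% in the other 4. Since whole tissue was measured, fewer cells of a type and less RNA per cell cannot be told apart either.

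Promoters of 4 members are shown because the results turn on them: Bax, an effector that forms pores in the mitochondrial outer membrane, Bbc3 (Puma) and Bmf, both BH3-only, and Birc2 (cIAP1), an IAP. They are the 250 bases before a listed start in RefSeq (GRCm38.p6), for Bax chr7:45466899-45467148 on the minus strand, for Bbc3 chr7:16309333-16309582 on the plus strand, for Bmf chr2:118549687-118549936 on the minus strand and for Birc2 chr9:7837058-7837307 on the minus strand, in each case the only start listed or the one farthest upstream. Capitals mark every match, on either strand and overlapping ones included, to 6 motifs: TATA box (TATAAA), GC box (GGGCGG), AP-1 site (TGANTCA), CRE (TGACGTCA), E-box of MyoD (CAGCTG) and the p53 half-site.
Bax: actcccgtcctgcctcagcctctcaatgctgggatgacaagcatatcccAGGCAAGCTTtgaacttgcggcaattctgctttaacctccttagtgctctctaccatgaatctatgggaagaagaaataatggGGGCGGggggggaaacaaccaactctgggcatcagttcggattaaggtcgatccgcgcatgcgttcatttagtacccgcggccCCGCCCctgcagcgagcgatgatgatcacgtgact
Bbc3: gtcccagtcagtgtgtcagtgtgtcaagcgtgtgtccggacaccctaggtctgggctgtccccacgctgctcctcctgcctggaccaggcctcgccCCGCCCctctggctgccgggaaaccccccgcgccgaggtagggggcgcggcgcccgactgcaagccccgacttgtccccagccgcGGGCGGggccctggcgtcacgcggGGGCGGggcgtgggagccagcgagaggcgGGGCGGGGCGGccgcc
Bmf: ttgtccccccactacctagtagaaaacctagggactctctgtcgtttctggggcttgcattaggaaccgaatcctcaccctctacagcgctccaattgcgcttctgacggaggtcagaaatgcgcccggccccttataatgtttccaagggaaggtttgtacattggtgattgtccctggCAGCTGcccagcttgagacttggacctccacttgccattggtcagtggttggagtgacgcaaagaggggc
Birc2: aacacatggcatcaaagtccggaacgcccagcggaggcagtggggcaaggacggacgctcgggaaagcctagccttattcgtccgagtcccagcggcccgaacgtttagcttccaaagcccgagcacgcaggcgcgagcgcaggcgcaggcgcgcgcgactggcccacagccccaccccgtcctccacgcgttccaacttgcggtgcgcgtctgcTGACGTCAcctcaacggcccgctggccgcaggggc
The Bax window has a p53 half-site 201 bases and GC boxes 118 and 35 bases before the start. The Bbc3 window has 5 GC boxes, of which the last 2 overlap, and is 76.4% GC, the Bmf window has an E-box 70 bases before the start, and the Birc2 window has a CRE 35 bases before it. Of the 35 members, 32 have an entry, and over all listed starts of a gene a GC box occurred in 22 of the 32 (68.8%) against 35.4% of 27025 genes. The other shares were 6.25% against 14.3% for the TATA box, 15.6% against 14.7% for the E-box, 9.38% against 8.2% for the p53 half-site, 3.12% against 1.77% for the CRE, and none of the 32 against 7.82% for the AP-1 site. These are matches of letters and say nothing on binding.

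Meth in Tat- mice was compared first. In Tat-/Meth vs. Tat-/Sal, 15 of the 30 members were higher and none was lower (limma, Benjamini-Hochberg adjusted p under 0.05 over all genes). They were Mcl1, Bax, Bbc3, Bmf, Bnip3, Casp1, Casp2, Casp6, Casp9, Xiap, Birc2, Birc5, Diablo, Aifm1 and Endog. Both pro- and anti-apoptotic genes were among them, 11 of 22 and 4 of 8. The share called, 50%, is next to the 50.2% of all tested genes called on these arrays, of which 35% were higher and 15.3% lower. The median log2 fold change was 0.28 over the members and 0.14 over all genes, and no member passed the additional 2-fold limit that 6.85% of all genes passed. Each of these differences is also a difference between slide 1 and slide 2. Markers of other cell types moved in the same comparison: of 6 astrocyte markers 3 rose, among them Gja1 by 0.84 (adjusted p = 5.6e-07), and Aldoc fell by 0.36 (adjusted p = 0.00108), with a summed log2 level of at most 18.28 (median 18.07) in Tat-/Meth against 18.23 to 18.51 (median 18.36) in Tat-/Sal, and 2 of 4 endothelial markers rose (14.75 to 15.23 against 14.51 to 14.83). Their part in the members' differences was not tested. With each array scaled to its median instead, 5 were called (Bbc3, Bnip3, Xiap, Birc2 and Birc5), against 4249 of all 15121 genes. With normexp background correction 23 were called, against 10808 of all 20969 genes. More genes reached the signal limit there, so the 23 are not counted out of the same 30 members. Why more members were called was not tested. Casp1 and Birc5 were not called by the methods' t-test (adjusted p of 0.0535 and 0.0782), nor Bax after quantile normalization (adjusted p = 0.057).

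Among the anti-apoptotic Bcl2 proteins, only Mcl1 rose of the 4 tested. Mcl1, a short-lived guard against Bak1, had log2 signals of 13.50, 13.65, 13.48, 13.48 and 13.44 in Tat-/Sal and of 13.85, 13.89, 13.86, 13.72 and 13.62 in Tat-/Meth. The highest saline array lay just above the lowest Tat-/Meth array, and the log2 fold change was 0.28 (SE 0.06, adjusted p = 0.00104). Bcl2, the founding member, had a difference of 0.13 (95% interval -0.14 to 0.39), Bcl2l1 (Bcl-xL) one of 0.06 (-0.05 to 0.16) and Bcl2l2 (Bcl-w) one of -0.05 (-0.16 to 0.06), each on its brightest probe; the other Bcl2l2 probe fell by 0.94 (adjusted p = 2.09e-06).

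The effector Bax had signals of 12.19, 12.18, 12.15, 12.07 and 12.08 in Tat-/Sal and of 12.57, 12.60, 12.45, 12.40 and 12.17 in Tat-/Meth. The lowest Tat-/Meth array, replicate 5, lay inside the saline range, and the log2 fold change of 0.30 (SE 0.11, adjusted p = 0.0291) was lost when 1 of 4 arrays was left out (adjusted p up to 0.0735). Bak1, the second effector, had a mean of 10.98 ± 0.08 in Tat-/Meth against 10.77 ± 0.17 in Tat-/Sal (SD, n = 5 each) and was not called (log2 fold change 0.21, adjusted p = 0.157). The signal of Bax less that of Bcl2 on the same array, which no scaling of the array can move, was 1.86 ± 0.14 in Tat-/Sal, 2.03 ± 0.11 in Tat-/Meth, 1.96 ± 0.12 in Tat+/Sal and 1.79 ± 0.28 in Tat+/Meth (SD, n = 5). The 4 groups overlapped in this measure, and its level has no meaning of its own because it sets 1 probe against another.

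Of the 6 BH3-only genes tested, which sense stress and release Bax and Bak1, Bbc3 and Bmf rose. Bbc3 had signals of 10.00, 10.02, 9.94, 10.14 and 9.79 in Tat-/Sal and of 10.73, 10.69, 10.22, 10.36 and 10.64 in Tat-/Meth, with no overlap (log2 fold change 0.55, SE 0.10, adjusted p = 0.000226). Bmf, a sensor tied to the cytoskeleton, had 8.42, 8.28, 8.45, 8.30 and 8.27 in Tat-/Sal against 8.62, 8.55, 8.84, 8.76 and 8.47 in Tat-/Meth (0.31, SE 0.08, adjusted p = 0.00241). Bad, Bid, Pmaip1 (Noxa) and Hrk were not called, with differences between -0.10 and 0.27. Bnip3, which sits on mitochondria and marks them for removal, rose from 14.61 ± 0.12 to 15.14 ± 0.18 (SD, n = 5) on its brightest probe (0.53, SE 0.09, adjusted p = 0.000159), though not in the mean over its 3 probes, and its relative Bnip3l had a difference of 0.03 (-0.11 to 0.17) on its brightest probe, while 2 of its other probes rose.

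Of the 5 genes for caspases and the apoptosome, the initiators Casp2 and Casp9 and the executioner Casp6 rose. Casp9, which is activated on Apaf1, had signals of 12.39, 12.32, 12.27, 12.26 and 12.49 in Tat-/Sal and of 12.72, 12.54, 12.68, 12.63 and 12.56 in Tat-/Meth, without overlap (0.28, SE 0.07, adjusted p = 0.00234). Casp2 differed by 0.29 (adjusted p = 0.00353) and Casp6 by 0.26 (adjusted p = 0.00279), also without overlap. Casp8, the initiator of the death receptor route, differed by 0.01 (-0.21 to 0.24) and Apaf1 by 0.15 (-0.17 to 0.46). Casp1, the inflammasome caspase, rose by 0.39 (SE 0.13, adjusted p = 0.0156), although every Tat-/Meth array lay below the 8.42 of Tat-/Sal replicate 1. Casp4 was not called (0.35, adjusted p = 0.185). Beside Casp1, the 8 microglial markers, all well above background on every array, had 1 higher and 2 lower in this comparison, and their summed log2 level was 17.01 to 17.14 in Tat-/Meth against 17.55 to 17.90 in Tat-/Sal. Their part in the Casp1 difference was not tested.

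The 3 IAPs tested among the members were each called higher. Of related genes outside the members, Birc6 fell by 0.30 (adjusted p = 8.19e-05) and Naip5 by 0.47 (adjusted p = 0.000169), while Naip2 rose by 0.35 (adjusted p = 0.0163). Birc2, which tags signalling proteins with ubiquitin, had signals of 10.53, 10.69, 10.58, 10.64 and 10.83 in Tat-/Sal and of 11.10, 11.03, 11.05, 11.05 and 11.03 in Tat-/Meth. All 5 Tat-/Meth arrays lay close together and above every saline array (0.40, SE 0.06, adjusted p = 3.02e-05). Xiap, the direct caspase inhibitor, had 13.11, 13.11, 12.99, 12.98 and 13.16 against 13.50, 13.31, 13.50, 13.42 and 13.45, again without overlap (0.37, SE 0.06, adjusted p = 8.32e-05). Birc5 (survivin), which also serves in cell division, spread widely, from 8.80 to 10.06 in Tat-/Sal and from 9.62 to 10.56 in Tat-/Meth (0.67, SE 0.22, adjusted p = 0.0166). It was 0.49 (adjusted p = 0.0543) without Tat-/Sal replicate 3. Beside it, 1 of 5 markers of dividing cells was higher, and their summed level was 10.08 to 11.09 in Tat-/Meth against 9.65 to 11.03 in Tat-/Sal. Their part in the Birc5 difference was not tested.

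The 3 genes for proteins released from mitochondria also rose. Diablo (Smac), which blocks IAPs, went from 11.51 ± 0.07 to 11.79 ± 0.07 (0.28, SE 0.05, adjusted p = 0.000204), Aifm1, a flavoprotein that moves to the nucleus, from 12.00 ± 0.07 to 12.32 ± 0.11 (adjusted p = 0.00239) and the nuclease Endog from 11.60 ± 0.10 to 11.84 ± 0.07 (adjusted p = 0.00167; SD, n = 5). None of the 3 tested genes of the death receptor complex was called: the adaptor Fadd, the kinase Ripk1 and the Casp8 decoy Cflar differed by 0.14, 0.28 and -0.05, with adjusted p of 0.468, 0.207 and 0.741.

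Tat+/Meth vs. Tat-/Meth compared Meth-treated mice with and without Tat. It shares the 5 Tat-/Meth arrays with the comparison before, so a value that is high on those arrays moves both. No member was higher and 16 of 30 (53.3%) were lower, 13 of 22 pro-apoptotic and 3 of 8 anti-apoptotic. Over all genes 54.4% were called, 16% higher and 38.5% lower, with a median log2 fold change of -0.15 against -0.28 over the members. Pmaip1, a BH3-only partner of Mcl1, was the 1 member past the 2-fold limit, which 7.22% of all genes passed. Its signals were 7.82, 7.84, 8.09, 7.65 and 7.22 in Tat-/Meth and 5.89, 7.18, 6.60, 7.28 and 6.54 in Tat+/Meth (log2 fold change -1.03, SE 0.23, adjusted p = 0.00116), and the ranges overlapped by 1 Tat-/Meth and 1 Tat+/Meth array.

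Bmf fell by 0.57 (SE 0.08, adjusted p = 5.29e-06), from 8.47 to 8.84 in Tat-/Meth to 7.93 to 8.27 in Tat+/Meth. Of the IAPs among the members, Birc2 fell by 0.45 (adjusted p = 7.33e-06) and Xiap by 0.43 (adjusted p = 1.29e-05). Their means were 10.61 and 13.01, beside 10.65 and 13.07 in Tat-/Sal. Bax fell by 0.49 (adjusted p = 0.00109), Bak1 by 0.37 (adjusted p = 0.016, and 0.0815 in the methods' t-test), Mcl1 by 0.29 (adjusted p = 0.000552) and Casp1 by 0.56 (adjusted p = 0.00104). The remaining 8 that fell were Bnip3, Casp2, Casp6, Casp9, Diablo, Aifm1 and Endog, which were also higher in Tat-/Meth vs. Tat-/Sal, and Bnip3l (-0.17, adjusted p = 0.0437), a call that was lost without any 1 of 10 arrays. Bbc3 and Birc5 had differences of -0.18 (-0.39 to 0.04) and -0.45 (-0.91 to 0.02) and were not called.

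**Figure D1:**
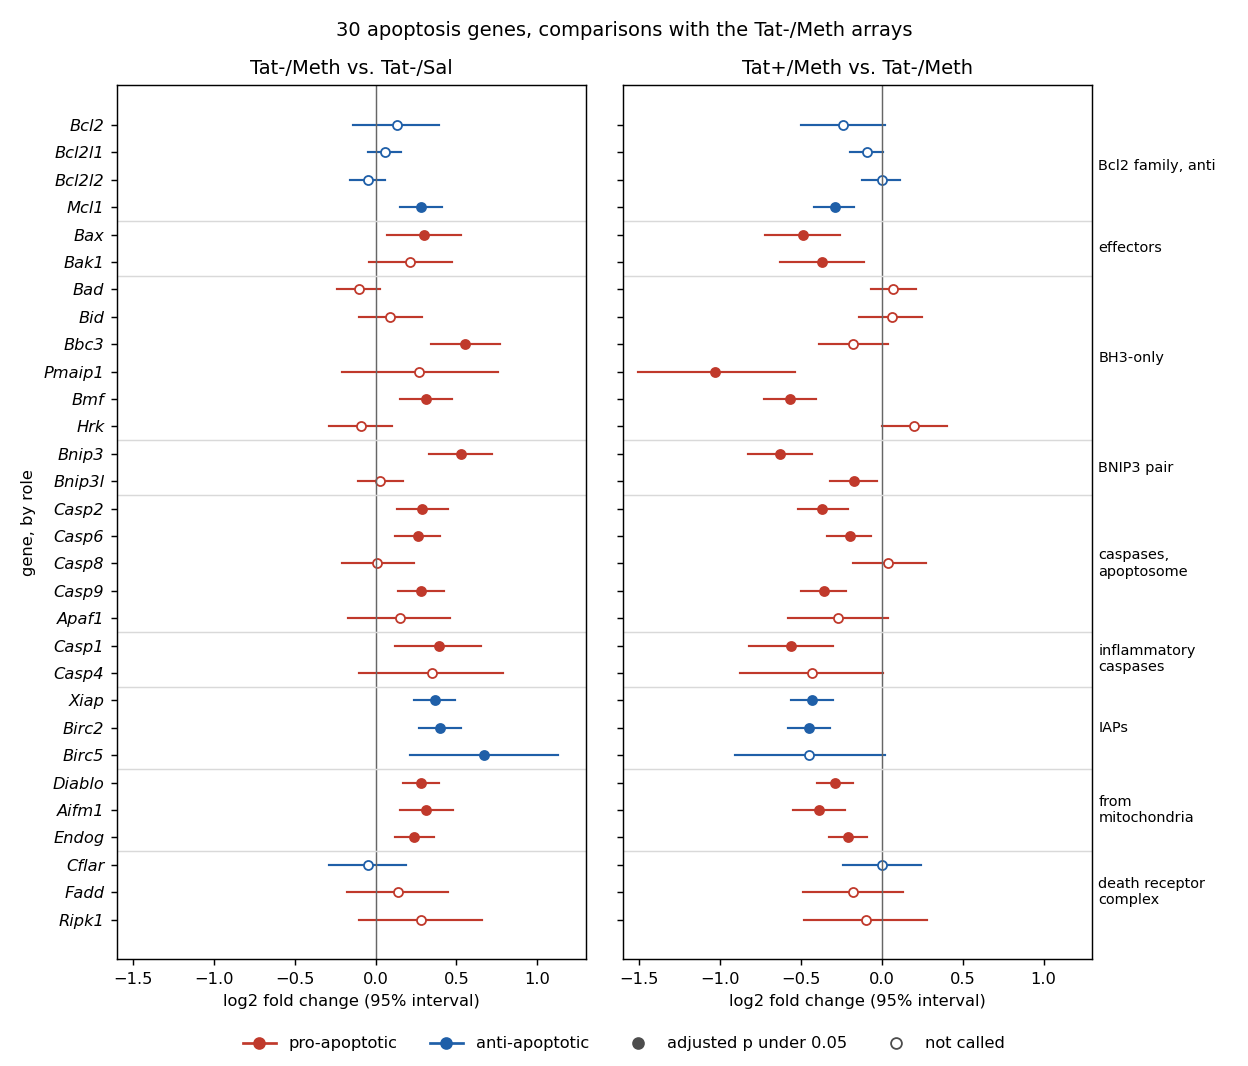
Log2 fold change with its 95% interval for the 30 tested apoptosis genes, ordered by role, for Meth in Tat- mice (left panel, Tat-/Meth vs. Tat-/Sal), then for Tat in Meth-treated mice (right panel, Tat+/Meth vs. Tat-/Meth). Red marks pro-apoptotic and blue anti-apoptotic genes. Filled points have an adjusted p under 0.05, and they are the 15 genes to the right of 0 on the left and the 16 to the left of 0 on the right, of which Pmaip1 lies at -1.03.

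The interaction asks whether Meth acted differently with Tat, as its change among Tat+ mice minus its change among Tat- mice. It was called for 7 of 30 members, all lower, against 36.0% of all genes called and 23.6% lower. They were Diablo (-0.41, adjusted p = 0.00033), Birc2 (-0.45, adjusted p = 0.000552), Endog (-0.41, adjusted p = 0.000568), Mcl1 (-0.33, adjusted p = 0.00672), Bnip3 (-0.47, adjusted p = 0.00953), Bmf (-0.30, adjusted p = 0.0361) and Bak1 (-0.47, adjusted p = 0.0398). With each array scaled to its median none of the 7 was called, against 2564 of all 15121 genes. The calls of Bak1 and Bmf were lost without any 1 of 8 and 9 arrays. The Bnip3 interaction was -0.18 (adjusted p = 0.272) in the mean over its probes. Bbc3 differed by -0.27 (-0.58 to 0.03) and Bax by -0.40 (adjusted p = 0.052).

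**Figure D2:**
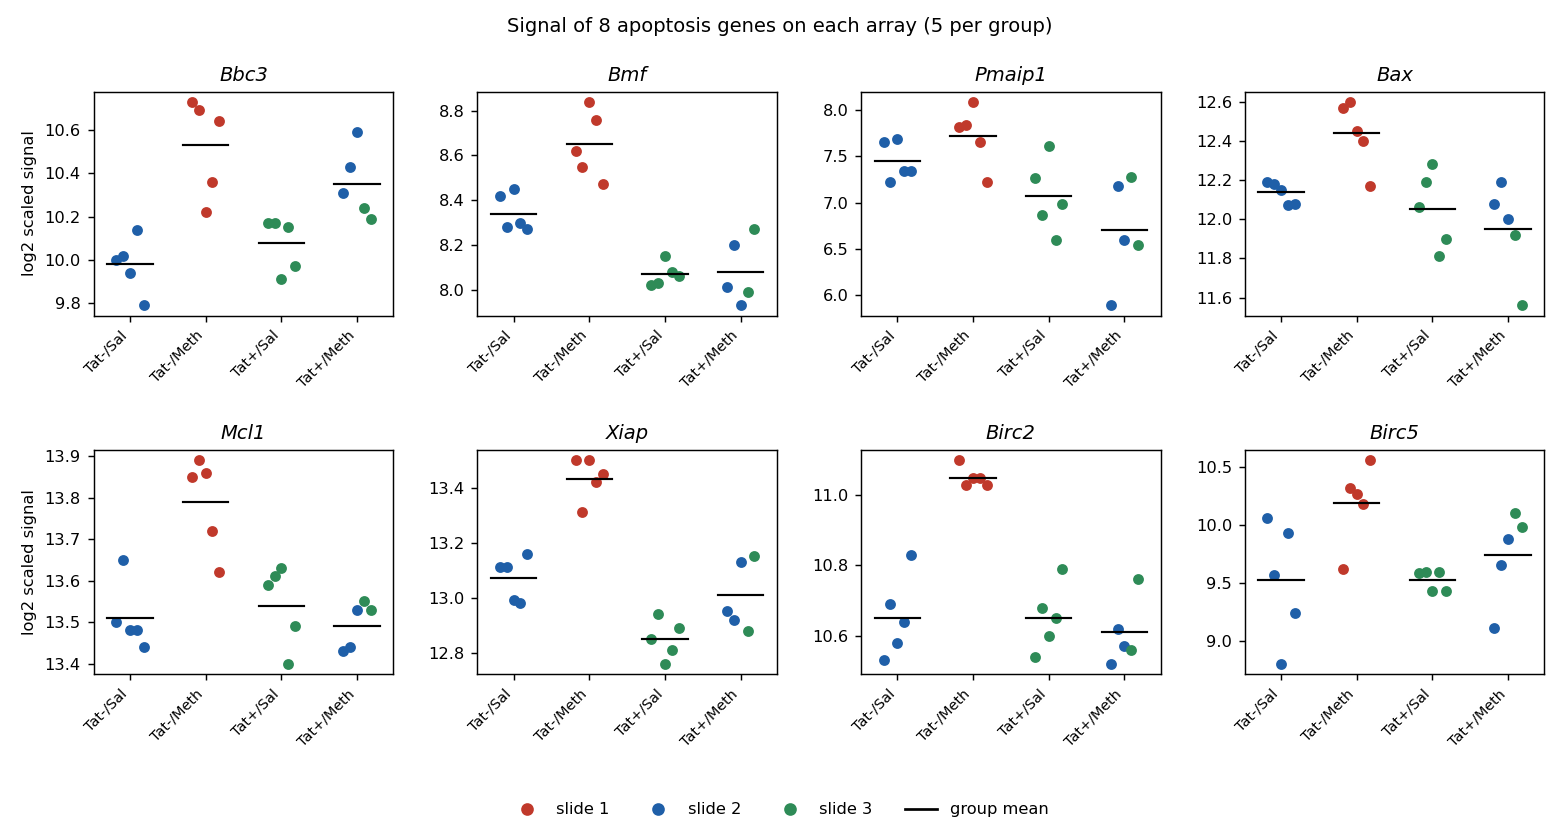
Log2 scaled signal of 8 apoptosis genes on each of the 20 arrays, with 1 point per mouse coloured by slide and a line at the group mean; the vertical scale differs between panels. Birc2 and Xiap on slide 1 lie above every other array, and Bbc3 is high in both Meth groups.

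The comparisons without Tat-/Meth gave no call among the members at the settings used here, though the first of them depended on the setting. In Tat+/Sal vs. Tat-/Sal, which asks what Tat does without Meth, 0 of 30 were called by limma and 0 by the methods' t-test, with 1.42% of all genes called. At an unadjusted p under 0.05 there were 12 members (40.0%) against 20.5% of all genes, and 3 did not overlap between the groups against 4.85% of all genes. The 3 were Bmf, Xiap and Casp1, all lower in Tat+/Sal. Bmf had 8.02, 8.03, 8.15, 8.08 and 8.06 in Tat+/Sal, below all Tat-/Sal arrays (log2 fold change -0.27, SE 0.08, adjusted p = 0.0688). Xiap had 12.85, 12.94, 12.76, 12.81 and 12.89 (-0.22, SE 0.06, adjusted p = 0.0712), and Casp1 had 7.62, 7.56, 7.46, 7.44 and 7.55 (-0.36, SE 0.13, adjusted p = 0.121). Endog was higher by 0.20 (SE 0.06, adjusted p = 0.071), and without Tat-/Sal replicate 3 it was called (0.24, adjusted p = 0.0236), as 1 of 2 members. Quantile normalization called Xiap (adjusted p = 0.0383) and Endog (adjusted p = 0.0474). Slide as a random block called 9 members, with adjusted p of 0.0112 for Bmf, 0.01 for Xiap and 0.0103 for Endog. Under that setting the estimated correlation within slides was negative (-0.0623), and the share of all genes called is not given here. With slide as a fixed block, fitted without the Tat-/Meth arrays, 0 members were called. These 2 groups lie on slides 2 and 3, and no slide holds both.

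In Tat+/Meth vs. Tat+/Sal, Meth in the presence of Tat, no member and no gene was called by limma (0% of 15102), nor any member by the methods' t-test. Here 7 members (23.3%) had an unadjusted p under 0.05 against 12.2% of all genes, and 2 did not overlap against 2.28% of all genes. Bbc3 was 10.31, 10.43, 10.59, 10.24 and 10.19 in Tat+/Meth and 10.17, 10.17, 9.91, 10.15 and 9.97 in Tat+/Sal (0.28, SE 0.10, adjusted p = 0.294). Endog was lower (-0.17, SE 0.06, adjusted p = 0.249), at 11.56 to 11.71 against 11.74 to 11.90. Within slide 3, with 2 Tat+/Meth and 5 Tat+/Sal arrays, Bbc3 differed by 0.14 (SE 0.11, unadjusted p = 0.235 in limma), Endog by -0.18 (unadjusted p = 0.075) and Birc5 by 0.52 (SE 0.10, adjusted p = 0.518).

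In Tat+/Meth vs. Tat-/Sal, the pair that differs in both factors, no member or gene was called by limma (0% of 15102) and no member by the methods' t-test. An unadjusted p under 0.05 was reached by 3 members (10.0%) against 7.79% of all genes, namely Bbc3 (0.38, SE 0.10), Bmf (-0.26, SE 0.08) and Pmaip1 (-0.75, SE 0.23), each with an adjusted p of 0.64. Of these, Bbc3 did not overlap, against 1.68% of all genes. All 3 are BH3-only. Within slide 2, which holds 3 Tat+/Meth and all 5 Tat-/Sal arrays, they differed by 0.47, -0.30 and -0.89 (adjusted p of 0.447, 0.532 and 0.532). The largest bound of any member's 95% interval in this comparison was 1.24 log2 units, for Pmaip1, and for 25 of the 30 the whole interval lay within 0.5.

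**Figure D3:**
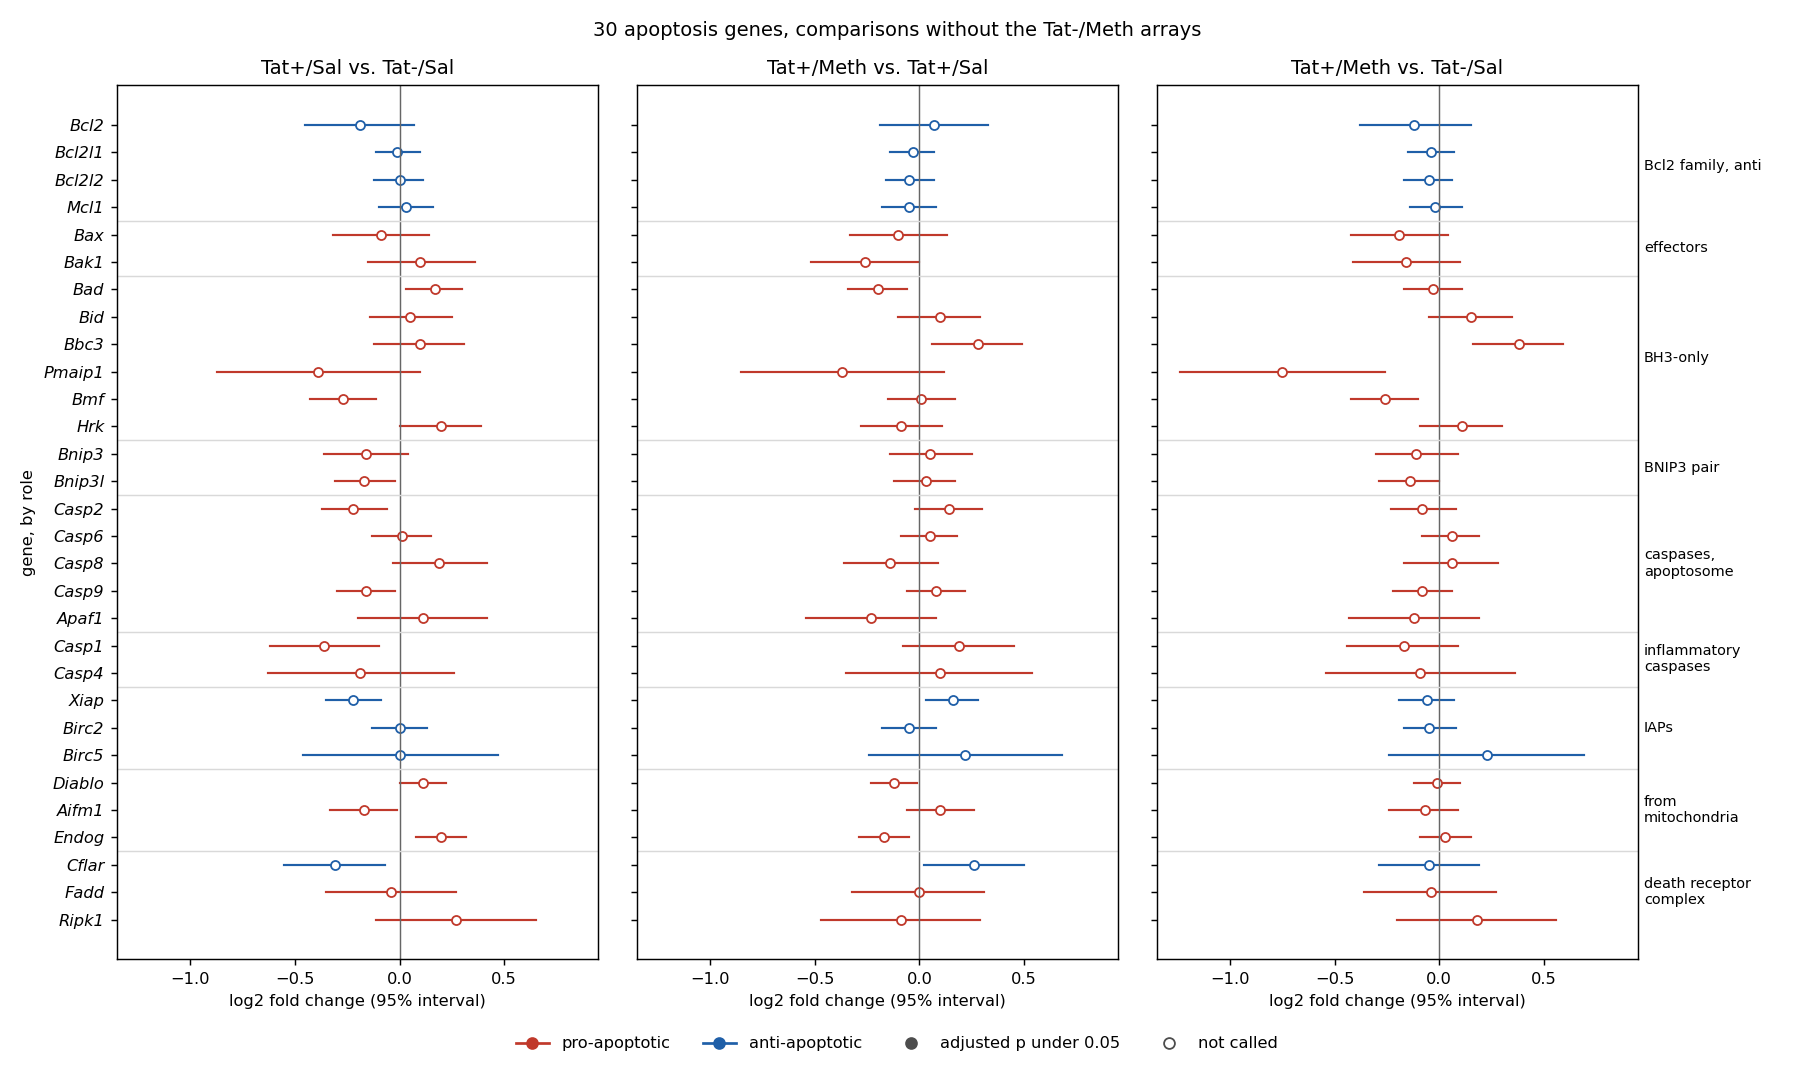
Log2 fold change with its 95% interval for the same 30 genes in the 3 comparisons that leave out Tat-/Meth, with pro-apoptotic genes in red and anti-apoptotic genes in blue. All points are open, since none had an adjusted p under 0.05; Bbc3 lies at 0.28 against Tat+/Sal and at 0.38 against Tat-/Sal, and Bmf at -0.27 in Tat+/Sal vs. Tat-/Sal.

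Bbc3 was the 1 member that separated the Meth groups from the saline groups in both genotypes. All 10 Meth arrays (10.19 to 10.73) lay above all 10 saline arrays (9.79 to 10.17), the lowest by little. Over all genes 2 of 15102 (0.0132%) separated in this way, Bbc3 and, lower in Meth, Tpm2, a tropomyosin; both were singled out after their values were seen. The separation depended on the scaling: 7 of the 10 Meth arrays lay above every saline array with median scaling, and 4 of 10 without scaling, although each Meth group mean stayed above the saline mean of the same genotype in both.

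Of the 30 tested members, 18 were called in at least 1 of these comparisons or in the interaction, and 12 in none, where 62.0% of all tested genes were called at least once. The 12 were Bcl2, Bcl2l1, Bcl2l2, Bad, Bid, Hrk, Casp8, Apaf1, Casp4, Cflar, Fadd and Ripk1. Bcl2l1, the main anti-apoptotic family member of adult neurons, had group means of 15.41 to 15.50 on its brightest probe, and Bcl2l2 had 12.84 to 12.89, with all 4 groups overlapping for both. Bcl2 was 10.41 ± 0.22 in Tat-/Meth and lowest in Tat+/Sal at 10.09 ± 0.26 (SD, n = 5), and the ranges of these groups overlapped. Among the BH3-only genes, Bad was 13.64 ± 0.10 in Tat+/Sal and 13.44 ± 0.07 in Tat+/Meth (log2 fold change -0.20, 95% interval -0.34 to -0.06, adjusted p = 0.252), and Hrk, which neurons induce when trophic support is lost, ranged in its group means from 13.78 in Tat-/Meth to 14.07 in Tat+/Sal. Cflar was 7.38 ± 0.21 in Tat+/Sal, against 7.70 ± 0.23 in Tat-/Sal (-0.31, adjusted p = 0.135) and 7.65 ± 0.13 in Tat+/Meth (0.26, adjusted p = 0.364 for Tat+/Meth vs. Tat+/Sal). Casp4 had wide intervals, -0.10 to 0.79 in Tat-/Meth vs. Tat-/Sal, and Ripk1 rested in Tat+/Sal on 1 array at 8.33 with the others at 7.18 to 7.50, which left its difference from Tat-/Sal an interval of -0.11 to 0.65.

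A member can be read by several probes, and the choice among them mattered. Of the tested members, 10 had at least 2 tested probes. In Tat-/Meth vs. Tat-/Sal, the log2 fold changes of a gene's probes spread by more than 0.5 in 5 of the 10, against 30.0% of 3898 such genes over the array. Bcl2l2 differed by -0.05 on its brightest probe, while the other fell from 10.35 to 9.40, a log2 fold change of -0.94. Bad, a BH3-only protein silenced by phosphorylation, differed by -0.10 on the brightest and rose by 0.50 on the other (adjusted p = 6.95e-05). Cflar differed by -0.05 on its brightest probe and rose by 0.67 on the second, which was also well above background on all 20 arrays (adjusted p = 7.51e-05), and by 0.79 on the third, which was so on 13 (adjusted p = 0.0262). Bnip3l differed by 0.03 on its brightest probe and by 0.31, 0.20 and 0.14 on the other 3, with adjusted p of 0.00125, 0.0345 and 0.0821. For Bnip3 the values were 0.53, -0.17 and 0.14, of which only the first was called, and the mean over its probes (0.16) was not called (adjusted p = 0.123). Both probes of Mcl1 (0.28 and 0.29) and of Diablo (0.28 and 0.43) rose, and those of Birc5 differed by 0.67, 0.45 and 1.05. No member had probes called in opposite directions, against 8.70% of the genes over the array. Which transcripts each probe reads is not given in the sources used here.

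**Figure D4:**
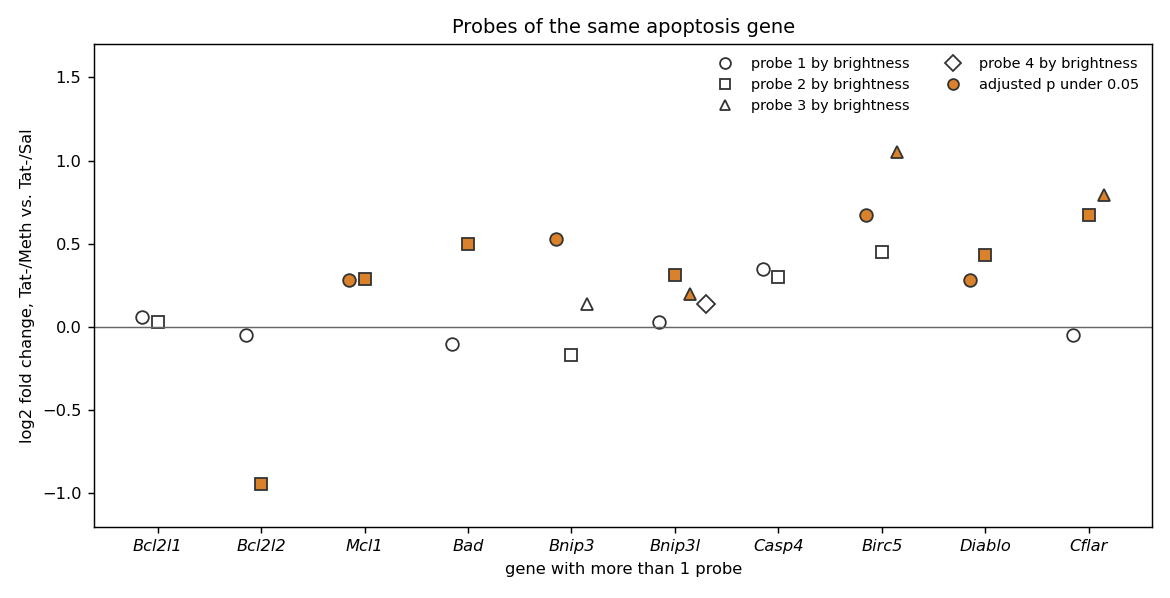
Log2 fold change in Tat-/Meth vs. Tat-/Sal for each tested probe of the 10 apoptosis genes that have more than 1, with the brightest probe marked and probes of an adjusted p under 0.05 filled. The probes of Mcl1 lie together at 0.28 and 0.29, while those of Bcl2l2 lie at -0.05 and -0.94.

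Differences between a pair of members on the same array are not moved by scaling the whole array, though quantile normalization or normexp correction could move them. Diablo less Xiap, an IAP blocker against its target, was -1.56 ± 0.12 in Tat-/Sal, -1.64 ± 0.12 in Tat-/Meth, -1.23 ± 0.10 in Tat+/Sal and -1.51 ± 0.11 in Tat+/Meth (SD, n = 5). The Tat+/Sal arrays (-1.34 to -1.12) lay above all arrays of the other 3 groups (-1.76 to -1.42). How often other gene pairs separate in this way is not given here, and no slide holds both Tat+/Sal and Tat-/Sal arrays. The brightest Diablo probe was used, which differed by 0.11 in Tat+/Sal vs. Tat-/Sal, against -0.03 on the second. Bbc3 less Mcl1 was -3.53 ± 0.13 in Tat-/Sal and -3.26 ± 0.25 in Tat-/Meth, and it was -3.47 ± 0.17 in Tat+/Sal and -3.14 ± 0.18 in Tat+/Meth. Bad less Bcl2l1 was lower in the Meth group of either genotype, at -1.98 ± 0.08 in Tat-/Sal, -2.13 ± 0.13 in Tat-/Meth, -1.80 ± 0.09 in Tat+/Sal and -1.97 ± 0.10 in Tat+/Meth. These are descriptions of 2 probes each and were not tested.

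The other genes of the pathway, a list of 51 from death receptors to caspase substrates of which 42 were tested, moved in both directions. In Tat-/Meth vs. Tat-/Sal, 10 rose and 7 fell. These 17 are 40.5% of the 42, against 50.2% of all genes. Among the 7, the death receptor Tnfrsf1a fell by 1.18 (adjusted p = 1.96e-08), Nlrp3, the inflammasome sensor that activates Casp1, by 1.22 (adjusted p = 5.52e-06), its adaptor Pycard by 0.89 (adjusted p = 6.56e-06), Mlkl, the pore of necroptosis, by 0.94 (adjusted p = 0.00467) and Tnfrsf10b by 0.68 (adjusted p = 0.00011), and the others were Naip5 and Birc6. Other genes of these kinds did not fall: Naip2 rose by 0.35 (adjusted p = 0.0163), and the receptor Fas and the pore protein Gsdmd differed by 0.20 and 0.22 and were not called. Those that rose included Cycs, cytochrome c (0.29, adjusted p = 0.0036). Casp1 thus rose on the arrays on which its sensor and its adaptor fell. In Tat+/Meth vs. Tat-/Meth 9 rose, Tnfrsf1a by 1.33 and Pycard by 1.06 among them, and 12 fell. The interaction was called for 13, of which 7 were higher. In Tat+/Sal vs. Tat-/Sal only Tnfrsf10b was called (-0.50, adjusted p = 0.042), which is 2.38% against 1.42% of all genes. None was called by limma in Tat+/Meth vs. Tat+/Sal or in Tat+/Meth vs. Tat-/Sal. An unadjusted p under 0.05 was reached by 5 and 1 (11.9% and 2.38%), against 12.2% and 7.79% of all genes.

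The 5 members that were not tested are Bik, Bcl2l11 (Bim), Casp12, Birc3 (cIAP2) and Ripk3, the kinase that starts necroptosis. Bik and Bcl2l11, both BH3-only, were not well above background on any of the 20 arrays. Casp12, a caspase of the endoplasmic reticulum, was so on 2 of the 5 Tat-/Meth arrays and on 1 array of each other group. Birc3 was so on 2 arrays of Tat-/Meth, and Ripk3 on 2 of Tat-/Sal and 1 of Tat-/Meth. No fold is given for them.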

How the data were processed

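Per the labels, RNA of each mouse was labelled with Cy3 and scanned. The authors deposited Agilent Feature Extraction output with processed intensity and background flags, and a table of processed intensity, not in log2 units, of the same arrays. The labels and the methods differ in tissue, age, time of death, dye and scanner, and the labels were followed. From the deposited intensity, log2 processed signal was scaled to each array's 75th percentile in R 4.3.3, without control spots and 4278 outlier spots, and spots of a probe were averaged. Genes with a group mean of at least 6 in log2 units (15102) were fitted over 4 group means in limma 3.58.1, and a call is a Benjamini-Hochberg adjusted p under 0.05 over all of them; the study's further 2-fold limit is given beside it. The 35 members, the lists of other pathway genes, markers and motifs, the comparisons and the rule to name every called member were chosen with earlier results of these data known. The other settings were quantile normalization, median scaling, normexp correction (offset 50), the deposited value table (floored at 1, then taken to log2), filters on dim probes, the mean over probes or every probe on its own, slide as a block, the replicate number as a block, only the groups compared, the methods' t-test and each array left out. The limma fit of Tat-/Meth vs. Tat-/Sal was tested on simulated data. Array replicates are separate mice, and their number, 5 a group, limits the precision. Promoter windows were searched in Python 3.11.15. The Tat transgene was not analysed here. For 35 members, protein sequence was not used here.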

Additional observations from a re-analysis of the deposited data

Results flagged for a closer look

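In 10 of the 120 groups of 5 arrays (30 genes in 4 groups), 1 array stood far from the other 4, where chance gives about 1 in 20 groups. In Tat-/Sal these were Bcl2l1 in replicate 3 (15.63, the others 15.36 to 15.43), Mcl1 in replicate 2 (13.65, the others 13.44 to 13.50), Bak1 in replicate 5 (10.48, the others 10.78 to 10.89), Casp6 in replicate 3 (9.06, the others 9.22 to 9.28), Casp1 in replicate 1 (8.42, the others 7.69 to 7.88) and Endog in replicate 3 (11.78, the others 11.51 to 11.59). Casp6 in Tat+/Meth replicate 5 was 9.39 (the others 9.20 to 9.26), Fadd in Tat-/Meth replicate 5 was 8.33 (the others 7.66 to 7.74), Fadd in Tat+/Sal replicate 5 was 7.97 (the others 7.53 to 7.61) and Ripk1 in Tat+/Sal replicate 2 was 8.33 (the others 7.18 to 7.50). Of these genes, Mcl1, Casp6, Casp1, Endog and Bak1 were called in at least 1 comparison.

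The effect of Meth differed between Tat+ and Tat- mice in limma for 7 members, by -0.47 for Bak1, -0.45 for Birc2, -0.30 for Bmf, -0.47 for Bnip3, -0.41 for Diablo, -0.41 for Endog and -0.33 for Mcl1, and slide 1 and the Tat-/Meth group in it cannot be told apart.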

How the results depend on the processing

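In Tat-/Meth vs. Tat-/Sal, 15 members were called, but 5 with median scaling, 23 with normexp and 0 with the 2-fold limit; leaving out 1 array gave 14 to 16. In Tat+/Meth vs. Tat-/Meth, 16 became 1 with the 2-fold limit, and 15 to 17 with 1 array left out. In Tat+/Sal vs. Tat-/Sal, 0 became 2 with quantile normalization, 9 with slide as a random block (2 higher and 7 lower, with a negative estimated correlation of -0.0623) and 0 to 2 with 1 array left out, 2 without Tat-/Sal replicate 3. With slide as a fixed block the count stayed at 0. The shares of all genes called with slide as a random block are not given here. In the interaction, 7 became 0 with median scaling, 11 with normexp, 11 with slide as a random block, 0 with the 2-fold limit, 11 with every probe on its own (chosen after seeing the data) and 5 to 9 with 1 array left out. The 2 other comparisons had 0 throughout. The cause was not tested. Median scaling moved the median of all genes in Tat-/Meth vs. Tat-/Sal from 0.14 to 0.26 and called 4249 of 15121 genes there. Under normexp 8782 of 20969 genes were higher and 2026 lower there, against 5281 and 2307 of 15102. In Tat+/Sal vs. Tat-/Sal quantile normalization gave 208 and 280 against 116 and 98. Of the called member values, 369 of 404 stayed called over the settings other than a left-out array and 728 of 760 over the left-out arrays, and none changed sign; 21 of the 35 lost calls came with median scaling. The replicate numbers were not taken as pairs (median correlation 0.044 over 30 same-number pairs, and 7 of 20 arrays correlated best with their own number). With the replicate block 15, 16, 0, 0, 0 and 9 members were called in the order of the comparisons, the interaction last. The methods' t-test and the fit of only the groups compared give no interaction. Probes near background limit the dim members, of which 5 could not be tested.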
